A study of Mus musculus with 34 samples.

Results

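The genes described here are 6 genes of the sarcoplasmic reticulum, the calcium store of the muscle fibre: Sln, Atp2a1, Atp2a2, Casq1, Casq2 and Ryr1. Each was measured by the probes whose only annotated gene symbol is its own, and the log2 values of these probes were averaged on each array. In each of the 2 value tables these were 27 of 1200 probes: 2 for Sln, 12 for Atp2a1, 3 for Atp2a2, 2 for Casq1, 3 for Casq2 and 5 for Ryr1. The 6 genes are among 637 that both tables measure by probes of a single symbol.

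A muscle fibre contracts when calcium leaves the sarcoplasmic reticulum through the ryanodine receptor, and it relaxes when SERCA pumps return the calcium. Sarcolipin, a small membrane peptide made by Sln, binds the SERCA pump and lowers the calcium moved for each ATP spent. Calsequestrins hold calcium inside the store. In the mdx mouse, which lacks dystrophin, handling of calcium by muscle fibres is known to be disturbed.

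Total RNA of mouse muscle was measured on 34 arrays with 2 colours. The groups were mdx hindlimb, BL10 hindlimb, mdx diaphragm and BL10 diaphragm, each once from mice given L-arginine and once from untreated mice. L-arginine is the amino acid from which nitric oxide is made, and the dystrophin-carrying BL10 strain is the control of the mdx strain. Each of the 8 groups held 1 array at 3, 5, 9 and 12 weeks of age. The untreated mdx groups had a further array at 12 weeks (Sample 1 and Sample 2), so 16 arrays were treated and 18 untreated.

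On each array 1 colour carried 12-week RNA of the strain by its label, and the other the strain at the age of the title. The labels do not say from which tissue the 12-week RNA came, whether it came from treated mice, whether arrays were of separate animals, or the dose and length of treatment. All p-values thus rest on the spread from array to array, and part of that spread may be technical. Treated and untreated arrays each had a table and a platform of their own, and the effects of treatment and of table cannot be told apart. An array titled as 9-week BL10 hindlimb under L-arginine has mdx in its colour labels, and it was kept with the group of its title.

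The deposited values read as ratios of the named sample over the 12-week RNA. Since each strain was set against 12-week RNA of its own, a strain difference here is a difference between ratios to different RNAs, and it does not measure which strain had more of a transcript. The direction of the ratios, the named sample over the 12-week RNA, is likely but is stated nowhere. The reverse direction would turn every sign given here. Array medians of the ratio lay between 0.94 and 1.22 in the treated table and between 0.73 and 1.08 in the untreated table. Ratios of 0 or below have no log; there were 2 to 36 of them per treated array and 0 to 225 per untreated array. Across probes, the lowest Pearson's r between an mdx and a BL10 array was -0.098 in the treated table and -0.408 in the untreated table. The median r of such pairs was 0.254 treated and -0.0246 untreated. Between arrays of the same strain the median r was little higher, at 0.297 treated and 0.0472 untreated. A level on the log2 scale of 0 means equal signal in both colours of an array, so levels were not compared between genes as abundances. Muscle was measured whole, so fewer cells of a type and less RNA per cell cannot be told apart.

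Sln had the widest spread of the 6 genes. In L-arginine-treated mdx hindlimb its log2 ratio was 1.77, 0.93, 1.23 and 1.60 at 3, 5, 9 and 12 weeks. In L-arginine-treated BL10 hindlimb it was -0.35, 0.23, 0.25 and -0.25 at the same ages. The strains did not overlap, and mdx was higher at all 4 ages. The group means were 1.38 ± 0.37 in mdx and -0.03 ± 0.31 in BL10 (SD, n = 4 each). The gap between the strains at the same age ran from 0.71 at 5 weeks to 2.12 at 3 weeks. It was 1.85 at 12 weeks, where both colours carried 12-week RNA of the strain by their labels. Like RNAs in both colours would give about equal signal, so the 12-week gap is not a gap in change with age.

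Fitted over all genes with limma, this strain difference in Sln was 1.41 ± 0.27 (SE), a 2.66-fold higher ratio in mdx, with a 95% interval of 0.81 to 2.01. Its unadjusted p was 0.000254, the second smallest of 633 genes, and its Benjamini-Hochberg adjusted p was 0.0572. Neither Sln nor any other of the 6 genes passed the adjusted threshold of 0.05 in treated hindlimb, where 0.158% of all genes did. At an unadjusted p under 0.05, 1 of the 6 (Sln) and 18.8% of all genes passed. The median difference of all genes was 0.13 in the same direction. A gap without overlap and with mdx above was found for 4.27% of all genes, and for Sln alone among the 6.

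The 2 Sln probes, listed under the same transcript accession, both had log2 ratios above 0 on all 4 treated mdx hindlimb arrays. The first probe had deposited ratios of 2.06, 1.63, 1.9 and 2.56 in mdx at 3, 5, 9 and 12 weeks, against 0.38, 1.43, 1.84 and 0.98 in BL10. These ranges overlapped, since the BL10 ratio at 9 weeks exceeded the mdx ratio at 5 weeks. The second probe had 5.63, 2.24, 2.9 and 3.57 in mdx, against 1.62, 0.96, 0.77 and 0.72 in BL10, with no overlap. The strains were also apart in treated hindlimb for the second Atp2a1 probe, at log2 ratios of -0.06 to 0.12 in mdx and -0.45 to -0.07 in BL10. For the first Casq1 probe mdx was the lower, at -0.62 to -0.38 against -0.29 to 0.40. The share of all probes without overlap was not counted. Tested probe by probe over 1192 probes with limma, the ratio of the second Sln probe was higher in mdx by 1.81 ± 0.23 (SE), with an adjusted p of 0.00245 and the second smallest p of its table. The first Sln probe differed by 1.02 ± 0.44, with an adjusted p of 0.246. The adjusted threshold was passed by 1 of the 27 probes of the 6 genes and by 1.76% of all probes.

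Leaving out the 5-week or the 9-week treated BL10 hindlimb array brought the Sln gene mean past the threshold, and no other single array did. These arrays held the highest Sln values of their group, 0.23 and 0.25, so leaving out either widened the gap. Once the 9-week BL10 array with mdx in its colour labels was left out, the difference in Sln was 1.61 with an adjusted p of 0.0345. Once the 5-week BL10 array was left out it was 1.65 with an adjusted p of 0.0170. Rescaling the arrays did not bring the Sln gene mean past the threshold. With all arrays brought to 1 spread the difference was 1.04, with an adjusted p of 0.392. After quantile normalization it was 1.05, with an adjusted p of 0.329.

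**Figure D1:**
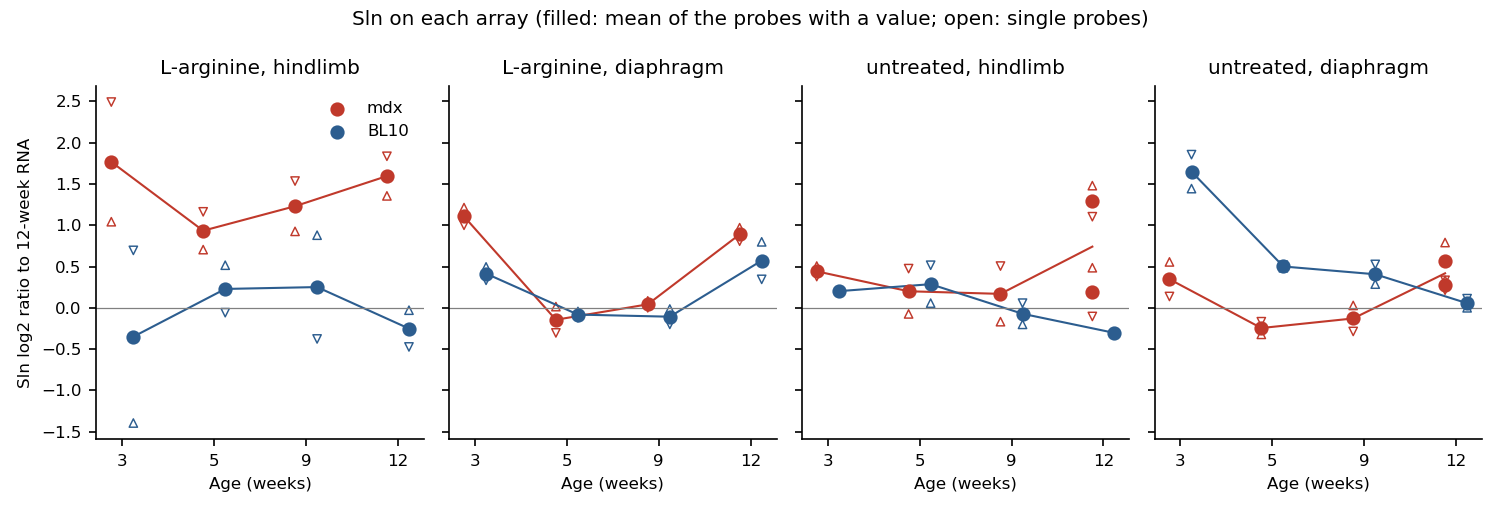
Log2 ratio of Sln to 12-week RNA (y axis) against age in weeks (x axis) on each array, with mdx in red and BL10 in blue; filled points are means of the probes with a value and open triangles are the probes, and lines join the means at each age. In treated hindlimb the mdx means lie between 0.93 and 1.77 and the BL10 means between -0.35 and 0.25, and the strains overlap in the other 3 panels; in untreated BL10 hindlimb the points at 3 and 12 weeks rest on 1 probe.

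In treated diaphragm the strains overlapped in Sln. The log2 ratio was 1.11, -0.14, 0.04 and 0.89 in mdx at 3, 5, 9 and 12 weeks, against 0.41, -0.08, -0.11 and 0.57 in BL10. Both strains were higher at 3 and 12 weeks than at 5 and 9 weeks. The strain difference was 0.27 (95% interval -0.32 to 0.87, adjusted p = 0.998 by limma). The strain difference in hindlimb minus that in diaphragm was 1.14 ± 0.39 (SE), with an unadjusted p of 0.0127 by limma and an adjusted p of 0.695, so a difference between the tissues was not called. No gene was called in this contrast (0.0%), and 6.64% of all genes passed at an unadjusted p under 0.05. Averaged over both tissues the strain difference in Sln was 0.84 ± 0.19, with an adjusted p of 0.0520. In that average 1.58% of all genes and none of the 6 passed; at an unadjusted p under 0.05 Sln and 12.8% of all genes did. The second Sln probe passed there by itself, at 1.05 with an adjusted p of 0.00429, beside 1.93% of all probes.

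In untreated hindlimb Sln was 0.44, 0.20 and 0.17 in mdx at 3, 5 and 9 weeks, then 1.29 (Sample 1) and 0.19 (Sample 2) at 12 weeks. The BL10 arrays gave 0.20, 0.29, -0.07 and -0.30. The strains overlapped, and Sample 1 stood apart from the other mdx arrays. The difference was 0.43 (95% interval -0.23 to 1.08, adjusted p = 0.637 by limma), in a comparison where 0.157% of all genes and none of the 6 passed. At an unadjusted p under 0.05, 11.9% of all genes and none of the 6 did, and of single probes 0.0841% and none of the 27 passed the adjusted threshold. One of the 2 probes had no positive ratio on the BL10 arrays at 3 and 12 weeks, where the deposited values were -0.83 and -4.77, so those means rest on the other probe. With ratios under 0.1 raised to 0.1 instead of dropped, which brings these values back, the difference in Sln was 1.27 (adjusted p = 0.194). It was 0.13 without the 12-week arrays, 0.22 without Sample 1 and 0.26 without the 12-week BL10 array, with adjusted p of at least 0.846 in these 3 fits.

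Untreated diaphragm had the reverse order of strain means in Sln. The mdx arrays gave 0.35, -0.24 and -0.13 at 3, 5 and 9 weeks, and 0.56 (Sample 1) and 0.27 (Sample 2) at 12 weeks. The BL10 arrays gave 1.65, 0.50, 0.41 and 0.06 at 3, 5, 9 and 12 weeks. The BL10 array at 3 weeks was the highest, and the strains overlapped. The deposited Sln ratios on that BL10 array were 2.72 and 3.62, and 168 of its probes had no positive ratio. The difference was -0.50 (95% interval -1.15 to 0.16, adjusted p = 0.617), and 0.0% of all genes were called there. At an unadjusted p under 0.05, 9.73% of all genes and none of the 6 passed. The hindlimb minus diaphragm contrast of strain differences in untreated mice was 0.92 ± 0.43 (SE, unadjusted p = 0.0490 by limma, adjusted p = 0.777), where 0.0% of all genes were called and 4.87% passed unadjusted. In the mean of both untreated tissues the difference in Sln was -0.04, with 0.0% of genes called; 14.1% of all genes and none of the 6 passed unadjusted.

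**Figure D2:**
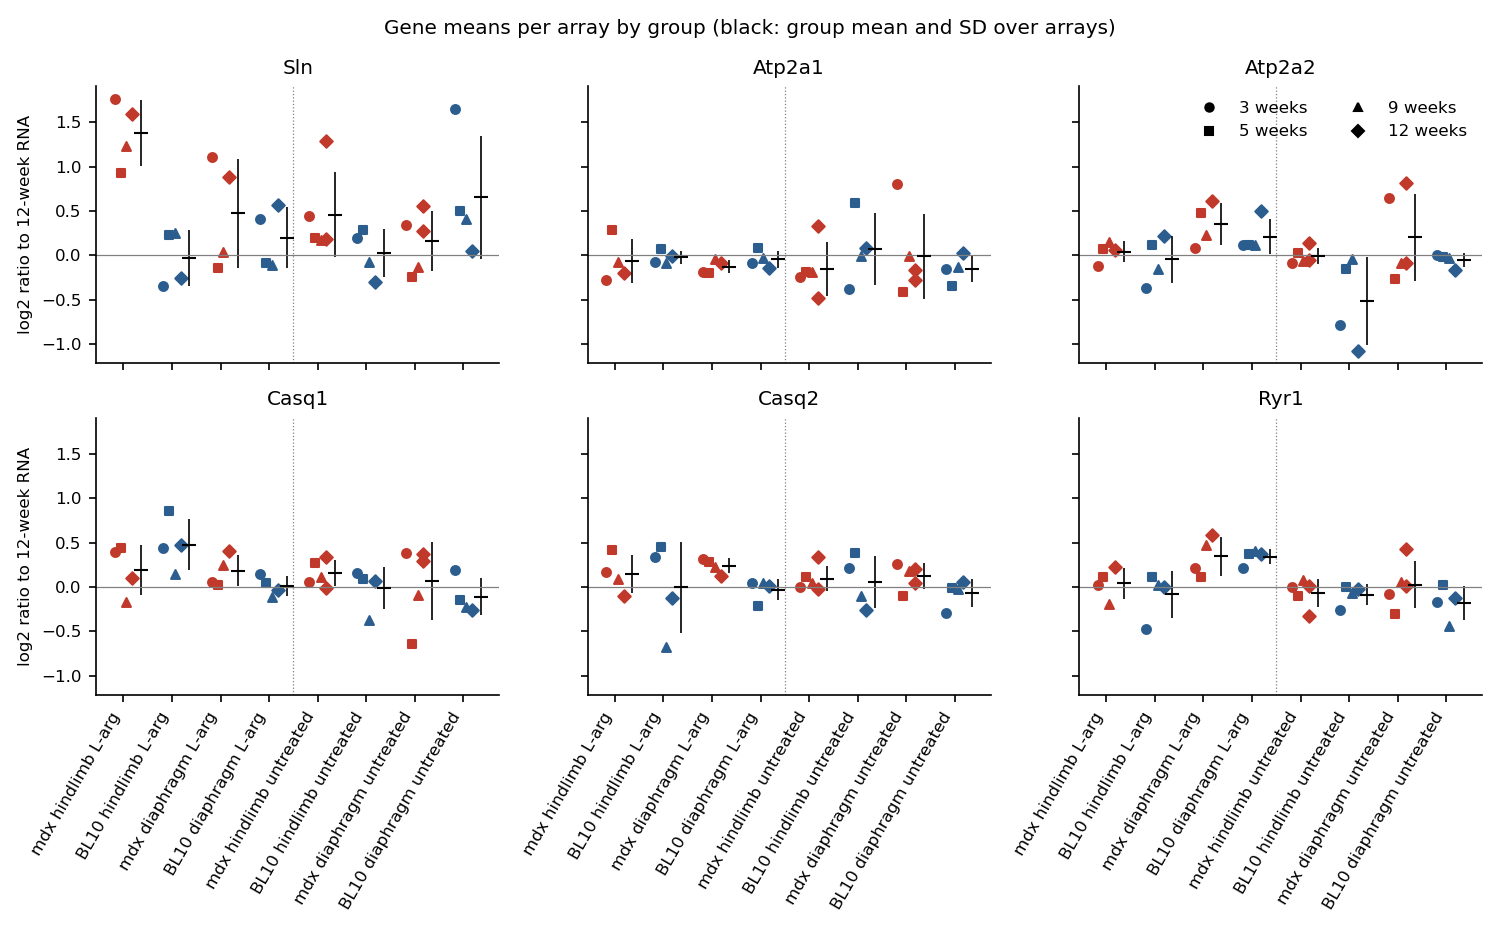
Log2 ratio to 12-week RNA (y axis) of each of the 6 genes on each array, by group (x axis), with mdx in red, BL10 in blue, marker shape for age, black bars for the group mean and SD over 4 or 5 arrays, and a dotted line between the tables. The mean of Sln in treated mdx hindlimb, 1.38, is the highest group mean; the next is Sln in untreated BL10 diaphragm, 0.65.

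Atp2a1 encodes SERCA1, the pump of fast fibres, and its group means ran only from -0.15 to 0.07 over the 8 groups. In treated hindlimb it was -0.28, 0.29, -0.08 and -0.19 in mdx at 3, 5, 9 and 12 weeks, against -0.08, 0.07, -0.08 and 0.00 in BL10. The mdx arrays spread more widely, and the BL10 values lay inside their range. The strain difference was -0.04 (95% interval -0.34 to 0.26) in treated hindlimb and -0.08 (-0.39 to 0.22) in treated diaphragm. In untreated mice it was -0.22 (-0.82 to 0.38) in hindlimb and 0.14 (-0.46 to 0.74) in diaphragm. The adjusted p was at least 0.804 in each of these 4 comparisons (limma).

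The 12 Atp2a1 probes disagreed more in the untreated table. The median over arrays of the SD between Atp2a1 probes was 0.21 in the treated table and 0.37 in the untreated table. In untreated hindlimb the strain differences of single Atp2a1 probes ran from -2.73 to 0.73, with 4 of 12 above 0. The lowest came from a probe whose deposited ratio was 63.65 on the BL10 array at 5 weeks. The other positive ratios of that probe in the 2 groups were 0.71 to 2.82. The ratio of 63.65 is part of the Atp2a1 mean of 0.59 on that array, the highest of untreated BL10 hindlimb. It thus enters the mean of that group, 0.07, and the strain difference of -0.22 in untreated hindlimb. One Atp2a1 probe per table carries the rat gene's identifier, and leaving it out called none of the 6 genes in any comparison.

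Atp2a2 encodes SERCA2, the pump of slow fibres and heart. In treated hindlimb it was -0.12, 0.08, 0.16 and 0.06 in mdx at 3, 5, 9 and 12 weeks, against -0.36, 0.11, -0.15 and 0.22 in BL10. In treated diaphragm it was 0.09, 0.47, 0.23 and 0.61 in mdx, against 0.12, 0.11, 0.11 and 0.51 in BL10. The strains overlapped in both tissues, and every diaphragm array was above 0. The differences were 0.09 (95% interval -0.22 to 0.40, adjusted p = 0.779) in hindlimb and 0.14 (-0.17 to 0.45, adjusted p = 0.998) in diaphragm.

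In untreated hindlimb Atp2a2 lay close to 0 in mdx, at -0.08, 0.03 and -0.06 at 3, 5 and 9 weeks, and 0.14 (Sample 1) and -0.06 (Sample 2) at 12 weeks. In BL10 it was -0.78, -0.15, -0.04 and -1.08 at 3, 5, 9 and 12 weeks. The low BL10 arrays were those at 3 and 12 weeks, and the strains overlapped through the BL10 array at 9 weeks. These BL10 arrays had the lowest array medians of the series, 0.73 and 0.78, and 225 and 128 probes without a positive ratio. Why Atp2a2 was low on them was not tested. The difference was 0.52 ± 0.28 (SE, 95% interval -0.07 to 1.11, adjusted p = 0.469 by limma). Over 31 alternatives it ran from 0.24 to 0.70, with 0.28 once the 12-week BL10 array was left out. In untreated diaphragm the mdx arrays ran from -0.26 to 0.81 and the BL10 arrays from -0.16 to 0.01, with a difference of 0.26 (-0.33 to 0.86).

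Sarcolipin acts on the pumps, so the log2 ratio of Sln was also set against that of each pump on the same array, as a description. Sln minus Atp2a1 averaged 1.45 ± 0.62 in treated mdx hindlimb (0.64 to 2.04) and -0.01 ± 0.30 in treated BL10 hindlimb (-0.27 to 0.33; SD, n = 4 each). Sln minus Atp2a2 averaged 1.34 ± 0.46 in treated mdx hindlimb and 0.01 ± 0.36 in treated BL10 hindlimb. These ranges did not overlap between strains. The pumps themselves differed little between the strains there, by -0.04 for Atp2a1 and 0.09 for Atp2a2. Both separations thus repeat the gap in Sln and are not further results. How often other genes set against a pump separate in this way was not counted. In untreated hindlimb Sln minus Atp2a1 averaged 0.61 ± 0.72 in mdx (-0.15 to 1.78, n = 5) and -0.05 ± 0.44 in BL10 (-0.39 to 0.58, n = 4), with overlap. There Sln minus Atp2a2 averaged 0.46 ± 0.41 in mdx (n = 5) and 0.54 ± 0.44 in BL10 (n = 4), with wide overlap. Atp2a2 minus Atp2a1, slow against fast pump, averaged 0.11 ± 0.22 in treated mdx hindlimb and -0.02 ± 0.22 in treated BL10 hindlimb.

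Casq1 encodes calsequestrin 1, the main calcium buffer of the store in fast fibres. In treated hindlimb it was 0.40, 0.44, -0.17 and 0.11 in mdx at 3, 5, 9 and 12 weeks, against 0.44, 0.85, 0.15 and 0.47 in BL10. At each of the 4 ages the mdx value was the lower, by 0.04 to 0.42, though the ranges overlapped. The difference was -0.29 (95% interval -0.67 to 0.10, adjusted p = 0.363 by limma). The first Casq1 probe differed by -0.56 ± 0.17 (adjusted p = 0.103) and the second by -0.01 ± 0.29. In treated diaphragm the Casq1 difference was 0.18, and hindlimb minus diaphragm was -0.46 ± 0.25 (SE, adjusted p = 0.714). In untreated mice it was 0.15 in hindlimb and 0.16 in diaphragm, with adjusted p of 0.834 and 0.843.

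Casq2 encodes calsequestrin 2, the form of slow fibres and heart. In treated diaphragm it was 0.32, 0.28, 0.23 and 0.13 in mdx at 3, 5, 9 and 12 weeks, against 0.04, -0.21, 0.04 and 0.01 in BL10. Each mdx value was above each BL10 value, as was the case for 4.27% of all genes in treated diaphragm. The difference was 0.27 ± 0.20 (SE, 95% interval -0.18 to 0.72, adjusted p = 0.998 by limma), and the 3 Casq2 probes gave -0.11, 0.31 and 0.61. In this comparison 0.158% of all genes and none of the 6 passed; at an unadjusted p under 0.05, 3.16% of all genes and none of the 6 did. In treated hindlimb Casq2 ran from -0.10 to 0.41 in mdx and from -0.67 to 0.45 in BL10. The difference there was 0.15 (-0.30 to 0.59), and the lowest BL10 value was that of the 9-week array whose colour labels name mdx. In untreated mice it was 0.04 in hindlimb and 0.19 in diaphragm, with adjusted p of 0.968 and 0.768.

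Ryr1 encodes the calcium release channel of skeletal muscle. In treated diaphragm it was above 0 on every array, at 0.21, 0.11, 0.48 and 0.59 in mdx at 3, 5, 9 and 12 weeks, against 0.21, 0.37, 0.40 and 0.37 in BL10. The strains overlapped, with a difference of 0.01 (95% interval -0.34 to 0.35). In treated hindlimb Ryr1 ran from -0.19 to 0.23 in mdx and from -0.47 to 0.12 in BL10, with a difference of 0.13 (-0.22 to 0.47). In untreated mice the strain difference in Ryr1 was 0.01 (-0.42 to 0.44) in hindlimb and 0.19 (-0.24 to 0.62) in diaphragm. The adjusted p was at least 0.689 in each of these 4 comparisons (limma). A probe of Ryr1 in treated hindlimb differed by 0.89 with an adjusted p of 0.0925, while 3 of the 5 Ryr1 probes lay below 0.

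**Figure D3:**
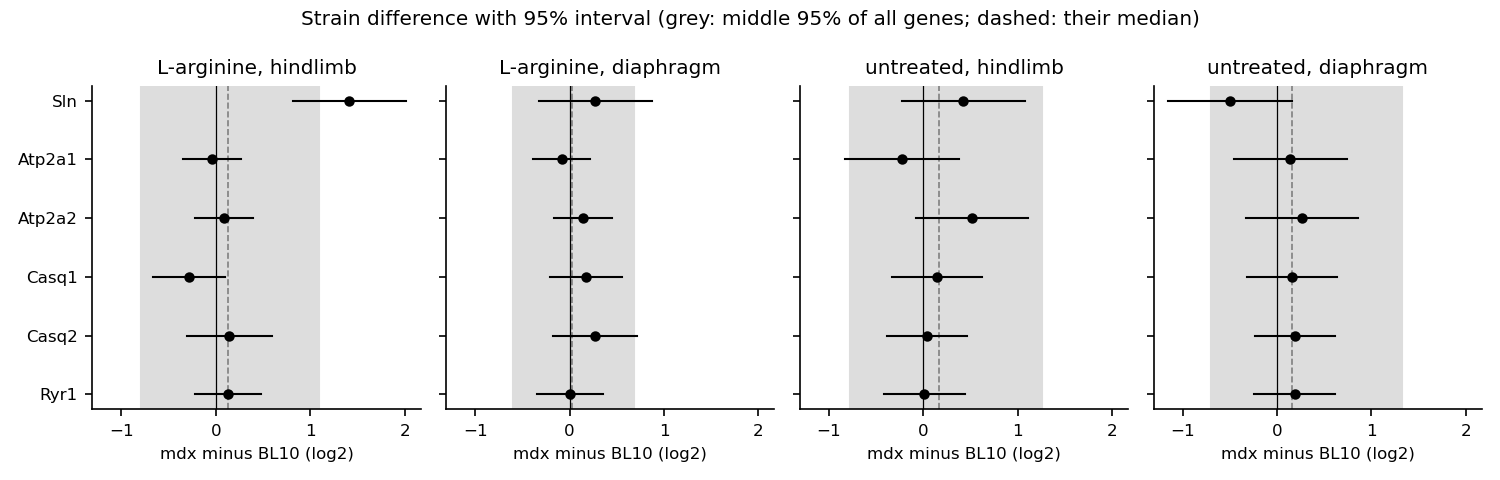
Strain difference (mdx minus BL10, log2, x axis) of each of the 6 genes (y axis) with its 95% interval from limma, in the 4 combinations of tissue and treatment. The interval of Sln in treated hindlimb, 0.81 to 2.01, is the only one shown that leaves out 0; grey marks the middle 95% of all genes and the dashed line their median.

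**Figure D4:**
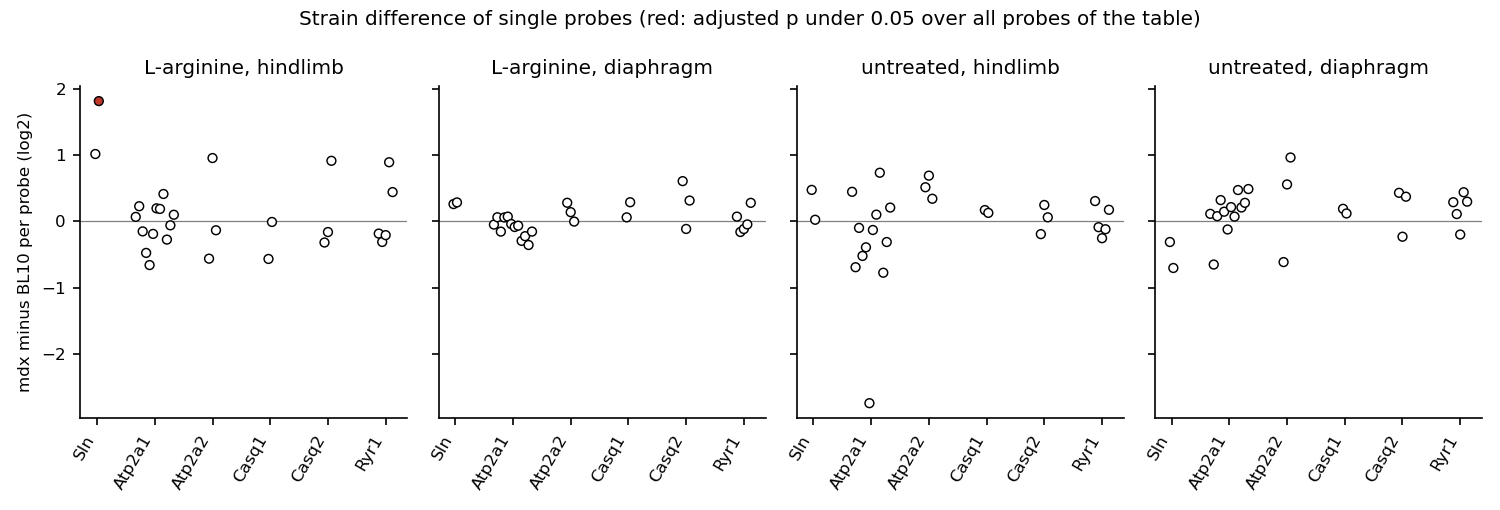
Strain difference (mdx minus BL10, log2, y axis) of each of the 27 probes by gene (x axis), in the 4 combinations of tissue and treatment; a red point had an adjusted p under 0.05 over all probes of its table. The second Sln probe in treated hindlimb, at 1.81, is the only red point, and the low point in untreated hindlimb is an Atp2a1 probe at -2.73.

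The tables were then compared, treated minus untreated, with age fitted within each table. In mdx hindlimb the difference in Sln was 1.10 ± 0.37 (SE, 95% interval 0.33 to 1.86), with an unadjusted p of 0.00679 by limma and an adjusted p of 0.277. The median difference of all genes was 0.30 there, and 92.5% of genes, Sln counted, lay at or below the value of Sln. In BL10 hindlimb the Sln difference was 0.11 (-0.71 to 0.92), beside a median of 0.32 for all genes. Over 48 alternatives the Sln difference ran from 0.53 to 1.43 in mdx hindlimb and from -0.13 to 1.06 in BL10 hindlimb, called in none. The 1.06 came from raising ratios under 0.1 to 0.1, and next to it the BL10 value was at most 0.43. In mdx diaphragm it was 0.48 (-0.28 to 1.25), and in BL10 diaphragm -0.29 (-1.10 to 0.53). Adjusted p-values under 0.05 were found for 0.0% of genes in mdx hindlimb, mdx diaphragm and BL10 diaphragm, and for 2.67% in BL10 hindlimb, none of them among the 6. At an unadjusted p under 0.05 Sln passed in mdx hindlimb beside 14.6% of all genes, Atp2a2 in BL10 hindlimb beside 17.6%, and Ryr1 in BL10 diaphragm beside 7.23%. In mdx diaphragm none of the 6 and 5.5% of all genes did.

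The strain difference in Sln itself differed between the tables by 0.99 ± 0.42 in hindlimb (unadjusted p = 0.0285 by limma, adjusted p = 0.353) and by 0.77 ± 0.42 in diaphragm (adjusted p = 0.929). The hindlimb value fell to 0.14 when ratios under 0.1 were raised to 0.1 instead of dropped, which brings back the negative BL10 values. In that hindlimb comparison 0.472% of all genes and none of the 6 passed. At an unadjusted p under 0.05 Sln and 12.1% of all genes did. In diaphragm 0.0% of all genes were called, and 5.19% of all genes but none of the 6 passed unadjusted.

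Of the other genes, Atp2a2 differed most between the tables in BL10 hindlimb, by 0.73 ± 0.30 (SE, 95% interval 0.10 to 1.35, adjusted p = 0.191 by limma). The untreated arrays behind this value include the low ones at 3 and 12 weeks named above. Over 48 alternatives it ran from 0.19 to 0.88, with 0.19 without all 12-week arrays and 0.39 without the 12-week untreated BL10 array alone. Ryr1 differed most in BL10 diaphragm, by 0.58 ± 0.23 (0.10 to 1.07, adjusted p = 0.449), and by 0.40 in mdx diaphragm (-0.05 to 0.86). Atp2a1, Casq1 and Casq2 gave differences of -0.16 to 0.42, and the intervals of all 3 genes held 0 in all 4 groups. The median of the 6 genes was 0.12 in mdx hindlimb, 0.09 in BL10 hindlimb, 0.23 in mdx diaphragm and 0.06 in BL10 diaphragm. The median of all genes was 0.30 in mdx hindlimb, 0.32 in BL10 hindlimb, -0.01 in mdx diaphragm and 0.11 in BL10 diaphragm. Taken as the mean of both strains, the difference in hindlimb minus that in diaphragm was 0.50 ± 0.30 for Sln (adjusted p = 0.397) and -0.36 ± 0.18 for Ryr1 (adjusted p = 0.287), in a contrast where 0.472% of all genes and none of the 6 passed; unadjusted, 17.6% and none of the 6 did.

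**Figure D5:**
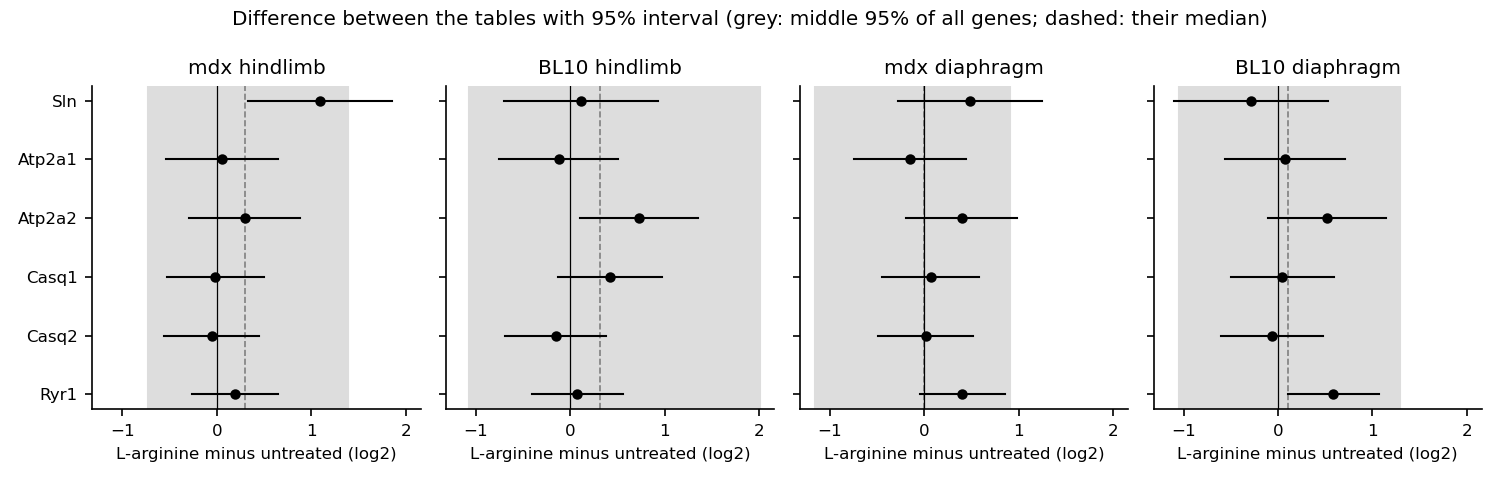
Treated minus untreated difference (log2, x axis) of each of the 6 genes (y axis) with its 95% interval from limma, in the 4 combinations of strain and tissue; grey marks the middle 95% of all genes and the dashed line their median. Sln in mdx hindlimb, at 1.10, lies inside the grey range, as do the other points.

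Age was tested against 12 weeks within each table. No gene of either table passed the adjusted threshold at 3, 5 or 9 weeks (0.0% in all 6 comparisons). At an unadjusted p under 0.05, 1 of the 6 genes passed in 1 of these comparisons: Atp2a2 at 3 weeks in the treated table, beside 4.58% of all genes. The share of all genes was 7.9% at 5 weeks and 3.48% at 9 weeks in the treated table, and 8.01% at 3 weeks and 3.3% at both 5 and 9 weeks in the untreated table. The ratio of Atp2a2 at 3 weeks averaged -0.07 ± 0.22 over the 4 treated groups, against 0.35 ± 0.25 at 12 weeks (SD, n = 4 each). The fitted difference was -0.42 ± 0.14 (SE, unadjusted p = 0.0117 by limma, adjusted p = 0.570). In the untreated table the same Atp2a2 difference was 0.08 (95% interval -0.49 to 0.65).

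Averaged over groups, Sln had its lower means at the middle ages in both tables. The mdx groups, with Sample 1 and Sample 2 averaged, and treated BL10 diaphragm had this shape. The other BL10 groups did not. Treated BL10 hindlimb was higher at 5 and 9 weeks (0.23 and 0.25) than at 3 and 12 weeks (-0.35 and -0.25). Untreated BL10 diaphragm fell from 1.65 at 3 weeks to 0.06 at 12 weeks, and untreated BL10 hindlimb was highest at 5 weeks (0.29). In the treated table it averaged 0.73, 0.23, 0.35 and 0.70 at 3, 5, 9 and 12 weeks, with SDs of 0.49 to 0.91 over 4 groups. In the untreated table it averaged 0.66, 0.19, 0.09 and 0.34, with SDs of 0.25 to 0.67. The fitted differences of Sln from 12 weeks ran from -0.47 to 0.31 over both tables, and all 6 intervals held 0.

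The arrays at 12 weeks carry 12-week RNA of the strain in both colours by their labels. Like RNAs would give about equal signal in both colours, and why values departed from that was not tested. Over the 4 treated arrays of this kind the log2 ratio of Sln ran from -0.25 to 1.60, with a median of 0.73. Over the 6 untreated ones it ran from -0.30 to 1.29, with a median of 0.23. The other 5 genes ran from -0.19 to 0.61 on the treated arrays and from -1.08 to 0.81 on the untreated arrays. In untreated mdx muscle Sample 2 minus Sample 1 was -1.10 for Sln in hindlimb, -0.89 for Atp2a2 in diaphragm and 0.82 for Atp2a1 in hindlimb, and it lay between -0.41 and 0.35 for the other genes and tissues.

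Over all 34 arrays the 6 genes were only weakly related to each other, with Spearman's rho between -0.31 (Sln with Atp2a1) and 0.43 (Casq1 with Casq2), each array centred on its median. The arrays of a strain may share reference RNA, which the labels do not settle, and the probes share an array, so these are descriptions. Among 627 genes with at least 30 shared arrays, those most like Sln were H19, an imprinted RNA of developing muscle, at a rho of 0.55, and Rn28s1, 28S ribosomal RNA, at 0.54. Dync1i2, a dynein chain, followed at 0.47, Ppib, a protein-folding isomerase, at 0.46, and Tuba1a, an alpha tubulin, at 0.45. Within the tables the rho of H19 was 0.61 treated and 0.58 untreated, that of Rn28s1 was 0.69 treated and 0.70 untreated, and that of Dync1i2 was 0.62 treated and 0.20 untreated.

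The gene most like Atp2a1 was Myh1, a fast myosin heavy chain, at a rho of 0.68, followed by Ndrg2 at 0.64. Atp2a2 was most like Myl4, the embryonic and atrial myosin light chain, at 0.63, and Tgfbr2, a TGF-beta receptor, at 0.61. Casq1 was most like Pde4dip at 0.69 and Sh3glb1 at 0.68. Casq2 was most like Sypl2, a membrane protein of the triad, at 0.60, and Map3k7 at 0.56. Ryr1 was most like Bhlhe40 at 0.63 and Cdv3 at 0.62, and the rho of Bhlhe40 was 0.84 in the treated and 0.31 in the untreated table.

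Of 61 other genes of calcium handling, 8 were measured: Hspa5, Pdia3, Pvalb, S100a10, Stac3, Srl, Sypl2 and Anxa6. None passed the adjusted threshold in any of the 21 comparisons (limma). In treated hindlimb 6 of the 8 were above 0 in mdx relative to BL10, with a median of 0.12, beside 61.5% of all genes and a median of 0.13. The smallest p there was that of S100a10, the annexin A2 partner, at 1.08 ± 0.30 (SE, adjusted p = 0.107), followed by Srl, the store protein sarcalumenin, at 0.34 (adjusted p = 0.461), and Stac3, which couples the voltage sensor to the release channel, at -0.25. In treated diaphragm Pvalb, the cytosolic calcium buffer parvalbumin, differed by -0.70 (adjusted p = 0.958). In untreated hindlimb Hspa5, a chaperone of the endoplasmic reticulum, differed by 0.66 (adjusted p = 0.387). In the comparison of tables Pdia3, a disulphide isomerase of that compartment, differed by 1.41 in mdx hindlimb (adjusted p = 0.307) and by 1.36 in BL10 hindlimb (adjusted p = 0.254). Its contrast of hindlimb minus diaphragm between the tables, 1.63 ± 0.48 (SE), had the lowest adjusted p of the 8 genes, 0.0903.

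Marker lists of other cells were set beside Sln in treated hindlimb, where 61.5% of all genes lay above 0 in mdx relative to BL10, with a median of 0.13 and 0.158% called. The mean log2 ratio of the 5 measured of 18 macrophage genes ran from 0.86 to 1.14 per array in mdx and from -0.39 to 0.29 in BL10, and 5 of 5 lay above 0, with a median of 1.01 and Lyz2 called. The 9 measured of 17 genes of developing or regenerating fibres ran from 0.76 to 0.94 in mdx and from -0.14 to 0.68 in BL10; 7 of 9 lay above 0, with a median of 1.01 and none called. The 5 measured of 12 fibroblast and matrix genes ran from 1.12 to 1.86 in mdx and from 0.25 to 1.20 in BL10, with overlap; 5 of 5 lay above 0, with a median of 0.61 and none called. In treated diaphragm, where Sln overlapped between strains, the macrophage means ran from 0.68 to 0.89 in mdx and from 0.01 to 0.56 in BL10. The means of developing or regenerating fibres ran there from 0.56 to 1.0 in mdx and from -0.275 to 0.54 in BL10, with Igf2 called. Those of fibroblast and matrix genes ran from 0.55 to 1.19 in mdx and from -0.24 to 0.53 in BL10. Of all genes 55.1% lay above 0 in treated diaphragm, with a median of 0.02 and 0.158% called. The part of these cells in the Sln values was not tested.

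Fibre type markers overlapped between the strains in treated hindlimb. The 11 measured of 16 fast-fibre genes ran from -0.06 to 0.29 in mdx and from -0.08 to 0.15 in BL10. The 3 measured of 12 slow-fibre genes (Tnni1, Tpm3 and Mb) ran from 0.15 to 0.59 in mdx and from -0.23 to 0.38 in BL10. In untreated BL10 hindlimb, where Atp2a2 was low at 3 and 12 weeks, the fast-fibre means ran from -0.999 to -0.09 and the slow-fibre means from -0.79 to 0.11, against -0.31 to 0.11 and -0.32 to 0.05 in untreated mdx hindlimb. The 2 measured of 6 fat genes overlapped between strains in all 4 settings, and none of 6 blood genes was measured.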

How the data were processed

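The authors deposited 1 value per probe and array; which scanner, dyes and normalization they used was not given in the sources used here. Per the labels no unit is named; the deposited values were read as linear ratios because array medians lie near 1. Ratios of 0 or below were treated as missing and the others turned to log2, with no further normalization. Genes were named from the platform annotation where a probe has 1 symbol (812 of 1200), and 26 of the 27 probes of the 6 genes matched the RefSeq gene table. Genes with values on at least 75% of arrays were tested (633 treated, 637 untreated, 636 over both tables) with limma 3.58.1 in R 4.3.3, fitting group and age, with Benjamini-Hochberg adjustment over all genes. Replicates are arrays of a group at different ages, so age is a term and there is no repeat within most ages. The number of arrays limits precision. Each fit was run on simulated data with independent errors from array to array. This cannot check whether the real arrays were of separate animals or shared a reference RNA. The 6 genes and the lists were chosen with earlier results of these data known. All 6 genes are named in every comparison, other calcium genes by smallest p, and like genes by highest rho. Alternatives covered scaling, print order, the missing-value rule, the age term, probe handling and each array left out. The removal of the rat-annotated Atp2a1 probe and array quality weights were added after seeing the data.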

Additional observations from a re-analysis of the deposited data

Results flagged for a closer look

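In each gene and group of 4 or 5 arrays the highest and lowest array were compared with the rest by Dixon's test; 3 of 48 gene and group combinations had an array far from the others, and chance gives about 1 in 20. Sln was highest, at 1.29, on Sample 1 at 12 weeks in untreated mdx hindlimb, while the other mdx arrays of that group lay between 0.17 and 0.44. Atp2a2 was highest, at 0.51, at 12 weeks in treated BL10 diaphragm, where the other arrays lay between 0.11 and 0.12. Casq2 was lowest, at -0.21, at 5 weeks in treated BL10 diaphragm, where the others lay between 0.01 and 0.04.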

How the results depend on the processing

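With the reported settings 0 of the 6 genes were called in each of the 21 comparisons. Among 4464 results of single genes under alternatives, 303 turned sign, none of them called, and 7 were called, all for Sln. The count of genes called was 1, Sln, in treated hindlimb with the print-order trend removed (adjusted p = 0.0292), with no age term (0.0361) and with probes tested singly. It was 1 in the mean of both treated tissues with the print-order trend removed (0.0430), with array quality weights (0.0306), an alternative chosen after seeing the data, and with probes tested singly. Leaving out 1 array gave counts of 0 to 1 in both; the 1 came in treated hindlimb without the 5-week (0.0170) or the 9-week (0.0345) BL10 hindlimb array, and in the mean of both tissues without the 5-week one (0.0270). The left-out BL10 arrays held the highest Sln values of their group, so leaving out either widened the gap. The cause of the other changes was not tested. Without the 12-week arrays Sln in treated hindlimb differed by 1.27 (adjusted p = 0.274). No paired analysis was possible because the labels do not say which arrays, if any, came from the same animal. Arrays of the same age are matched by the age term of the fit. Each table allows 1 array per group and age, so spread at 1 age could not be estimated outside untreated mdx muscle.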
